A study of Mus musculus with 21 samples.

Results

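The genes described here encode the chains of collagens III, V, VI, XII, XIV and XVI, collagens that cells of connective tissue lay down between cells. They were chosen as families of collagens and are Col3a1, Col5a1, Col5a2, Col5a3, Col6a1, Col6a2, Col6a3, Col12a1, Col14a1 and Col16a1, which are 10 of the 26852 genes in the table. Collagens III and V form fibrils, and collagen V sits inside fibrils built mostly of collagen I, where it takes part in starting the fibril and limiting its width. Collagen VI is assembled inside the cell from different chains and forms beaded filaments close to cell surfaces. Collagens XII, XIV and XVI are fibril-associated collagens, which attach to the surface of fibrils and do not form fibrils themselves.

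RNA was sequenced from Nes low mesenchymal cells of the bone marrow, sorted from mice with and without human acute myeloid leukemia. HL60 and ML1 are human leukemia cell lines, here carrying a lentivirus that makes them release sLP-mCherry, a red protein that enters neighbouring cells. After removal of blood cells with human and mouse CD45 kits, cells were stained for hCD45, mCD45, Ter119 and CD31. They were sorted by dim green fluorescence and by the red label. The question such groups address is how the stroma near the leukemia differs from stroma farther away and from stroma without leukemia.

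All hosts were NSG mice, which lack mature lymphocytes (NOD-SCID, IL2Rg null), with a Nestin-GFP transgene, and the leukemic ones received cells intravenously at 8 to 12 weeks of age without conditioning. The ctrl group held 3 libraries from mice without engraftment. Early ch+ cells, which had taken up the red protein, and early ch- cells, which had not, were sorted at the early stage of engraftment, and each of these groups held 3 libraries from HL60 mice and 3 from ML1 mice. The late group held 3 HL60 and 3 ML1 libraries from the late stage, with no split by the red label. As a model, it is limited to human cell lines in a mouse without lymphocytes, to cells in which a Nestin transgene is dimly active, and to RNA amplified from few cells. Nothing in the labels says that replicates of a group came from separate animals, so the p-values measure the spread between these libraries, which may be technical.

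For the 3 ML1 late libraries the treatment label calls the mice unengrafted, while the title and the time point call them late. They are kept as late here, and late values of HL60 are given beside those pooled over the lines. The extraction protocol in the labels also speaks of CD31-positive endothelial cells, while the sample labels name Nes low cells. Cxcl12, Lepr and Pdgfra, which mark mesenchymal cells of the marrow, had ctrl means of 15.19, 12.60 and 11.79 on the deposited log2 scale. The endothelial markers Pecam1 and Cdh5 had ctrl means of 5.59 and 6.56, and Ptprc, which encodes CD45, had 2.56. By these markers the ctrl libraries carried the label of the samples and not that of endothelial cells. They also held osteoblast and chondrocyte markers, with sums, given below, above that of CXCL12-abundant mesenchymal cells. Among the osteoblast markers, Col1a1 had a ctrl mean of 20.32. In the early libraries Ptprc had means of 4.21 in ch- and 4.79 in ch+ cells. Nes itself had a ctrl mean of 7.39.

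Values are the authors' regularized log2 normalized counts, in which small values are drawn towards the mean of the gene. Without that draw, a difference of 1 would be a doubling of the normalized count. Folds and summed signals given here are those of the regularized values. Reads cannot be recovered from them, so the depth of single libraries is not known (the methods give only a typical yield), and only the replicates show the precision. Summed over all genes, the normalized signal in units of 1000000 was 11.9 to 14.2 in the ctrl libraries, 8.41 to 9.02 in HL60 late and 7.27 to 7.46 in ML1 late. All 10 genes had a mean above the filter of 3.32 (10 normalized counts), and a gene was called at an adjusted p under 0.1 in limma over 12976 tested genes.

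In the ctrl libraries, the level per kb of exon was highest for Col5a2 among the 10 genes, at a mean log2 level per kb of 11.22 ± 0.24 (SD, n = 3). Col5a1 followed at 10.36, then Col6a1 at 9.57, Col12a1 at 9.48, Col6a2 at 9.37, Col3a1 at 8.95, Col6a3 at 8.66, Col5a3 at 6.18, Col16a1 at 5.21 and Col14a1 at 3.50. Col6a1 and Col12a1, and Col12a1 and Col6a2, changed places between ctrl libraries, while the other neighbours kept their order in all 3. In both late groups Col6a1 was highest, at a log2 level per kb of 10.71 ± 0.15 in HL60 late and 11.47 ± 0.32 in ML1 late, and Col6a2 was next at 10.49 and 11.26. Col5a2 stood at 9.70 in HL60 late, where its order with Col12a1 and Col5a1 changed between libraries, and at 8.64 in ML1 late, where its order with Col6a3 changed. The least expressed per kb were Col16a1 and Col14a1 in every group except early ch-, where Col5a3 and Col16a1 changed places between libraries in both lines.

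**Figure D1:**
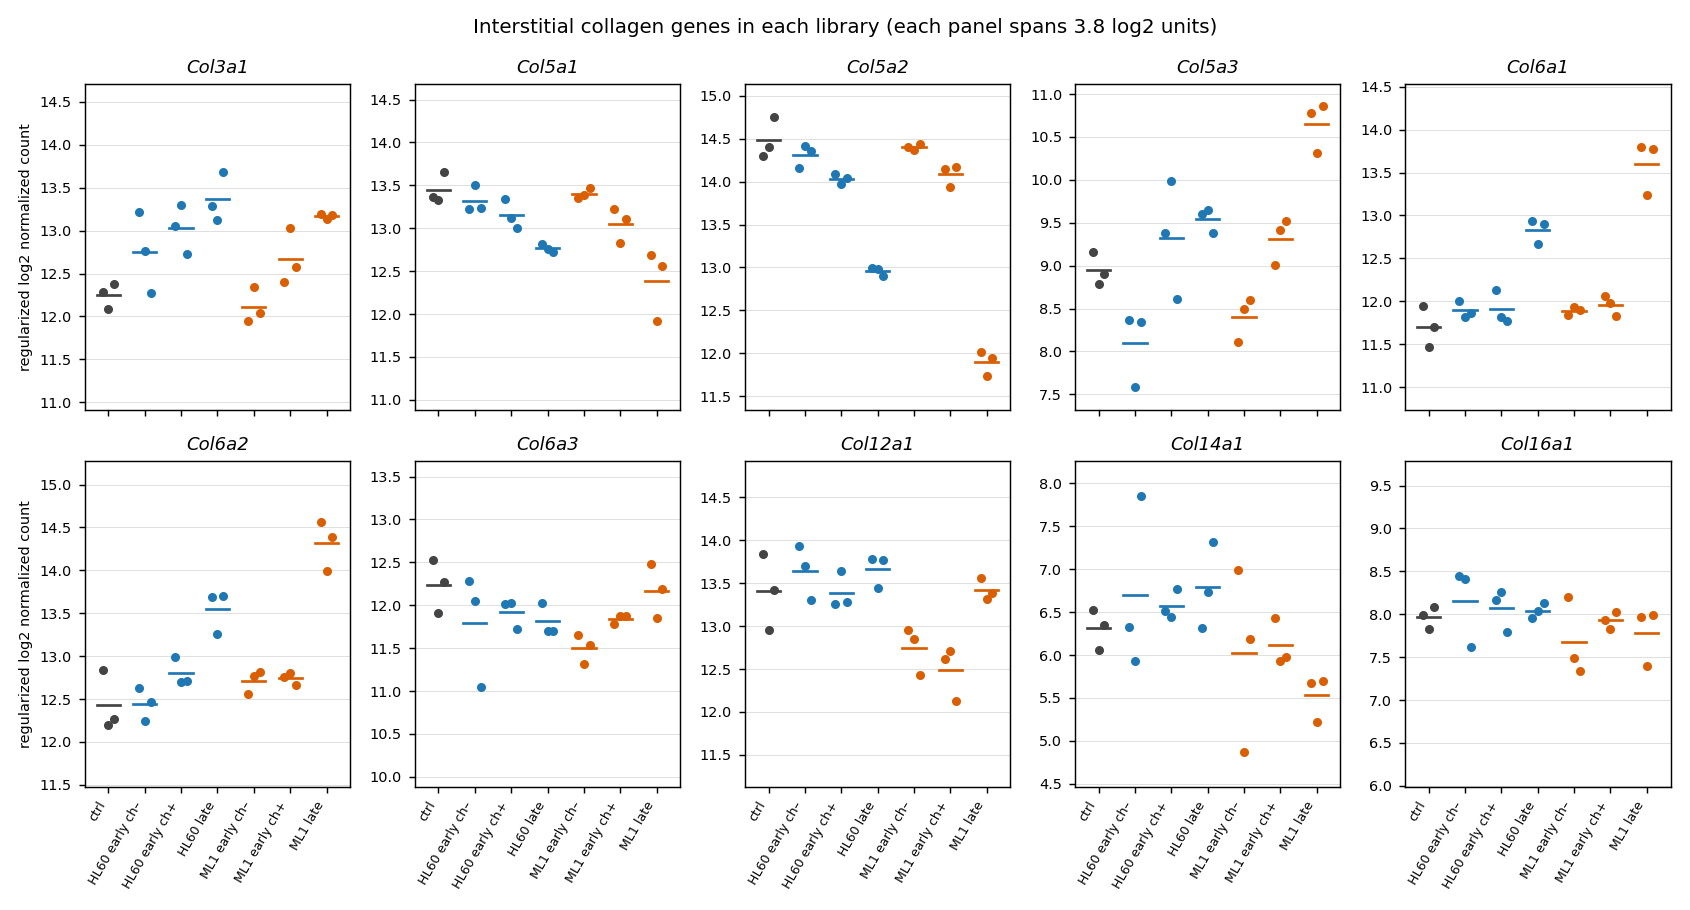
Regularized log2 normalized count of each of the 10 genes (y axis) in each library of the 7 groups (x axis). Points are libraries, 3 in each group, bars are group means, and every panel spans the same range of log2 units. Col6a1 and Col6a2 lie above every ctrl library in all 6 late libraries, and Col5a2 lies below.

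At the late stage the genes parted within a collagen type. Col3a1, Col6a1 and Col6a2 rose in both lines, Col5a2 fell in both, Col5a1 fell in both on the deposited scale but was not called after rescaling to library totals, and Col5a3 rose in ML1 late. In HL60 late against ctrl, 5 of 10 genes were called, 3 higher and 2 lower, where 13.7% of all tested genes were called, and 6 of 10 without HL60 ch- replicate 529 or HL60 ch+ replicate 525. In ML1 late, 6 of 10 were called, 4 higher and 2 lower, where 22% of all tested genes were called. With the lines pooled it was 6 of 10, 4 higher and 2 lower, beside 21.5% of all tested genes. These comparisons share the 3 ctrl libraries. The median log2 fold change of the 10 genes was 0.37 in HL60 late and −0.03 in ML1 late, beside 0.01 and 0.03 over all tested genes. In bulk samples, fewer cells of a type and less RNA per cell cannot be told apart.

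The summed signal of a library weighs abundant genes most. Col1a1 had a mean log2 value of 20.32 in ctrl, 18.65 in HL60 late and 16.15 in ML1 late. Because the late libraries sum to less signal, rescaling every library to the same total raised the median log2 fold change of all genes to 0.58 in HL60 late and 0.84 in ML1 late. After it, 8 of 10 genes were called in each line, 7 higher and 1 lower, beside 42.5% of all tested genes in HL60 late (5160 higher, 379 lower) and 67.6% in ML1 late (8195 higher, 611 lower). The lower gene was Col5a2 in each line. Col5a1 was then at −0.11 and −0.25 (adjusted p from 0.000828 to 0.56 in HL60 and from 4.99e-07 to 0.146 in ML1 over the alternatives other than leaving out a library), and Col6a3 turned from −0.42 to 0.15 and from −0.07 to 0.75, the last of which was called. Also called higher were Col12a1 (0.83 in each line), Col16a1 (0.64 in each line) and, in HL60 late, Col5a3 (1.17) and Col14a1 (1.04). Relative to the shifted median, Col5a1 lay at −0.69 and −1.09, Col6a3 at −0.43 and −0.09, Col12a1 at 0.25 and −0.02, and Col16a1 at 0.07 and −0.21. Differences between genes within a library, given below for chains of the same collagen, do not depend on this choice.

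Col3a1 (ENSMUSG00000026043, chr1:45311538-45349706, GRCm38) encodes the chain of collagen III, whose molecules are made of this chain alone and are found beside collagen I in soft and vascular tissue. Its log2 value was 12.28, 12.09 and 12.38 in the ctrl libraries, 13.29, 13.12 and 13.68 in HL60 late, and 13.19, 13.14 and 13.18 in ML1 late. All 6 late libraries lay above the highest ctrl library, and HL60 late and ML1 late overlapped. The rise was 2.16-fold in HL60 late (log2 fold change 1.11, SE 0.19, adjusted p = 8.47e-05) and 1.89-fold in ML1 late (0.92, SE 0.19, adjusted p = 0.000457). Already at the early stage, Col3a1 was 13.06, 13.30 and 12.73 in HL60 ch+ and 12.40, 13.03 and 12.57 in ML1 ch+. Each of these 6 values was above every ctrl library, the lowest of them by little. The change was called in HL60 ch+ (0.78, SE 0.19, adjusted p = 0.0135) and not in ML1 ch+ (0.42, SE 0.19, adjusted p = 0.255). The difference between HL60 ch+ and ML1 ch+ was itself tested and not called, and their libraries overlapped. In HL60 ch+ the call was lost with no filter on low values and with no mean-variance trend, and the adjusted p ran from 0.00553 to 0.122 over the alternatives. In early ch- cells it was 13.22, 12.76 and 12.28 in HL60 and 11.95, 12.34 and 12.04 in ML1, on either side of ctrl.

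Collagen V molecules hold the chains encoded by Col5a1 and Col5a2, and in some tissues that of Col5a3, and the 3 genes went different ways. Col5a2 (ENSMUSG00000026042, chr1:45374321-45503282), the gene next to Col3a1 and facing it at 24614 bp, fell most. It was 14.30, 14.41 and 14.75 in ctrl, 12.99, 12.99 and 12.90 in HL60 late, and 12.02, 11.73 and 11.95 in ML1 late. The groups did not overlap: every ML1 late library was below every HL60 late library, and those were below every ctrl library. It fell by 1.53 on the log2 scale in HL60 late (SE 0.12, adjusted p = 1.58e-10) and by 2.59 in ML1 late (SE 0.12, adjusted p = 1.05e-16). Its early ch+ values were 14.09, 13.97 and 14.04 in HL60 and 14.14, 13.94 and 14.17 in ML1, all 6 below the lowest ctrl library. The fall was called in HL60 ch+ (−0.45, SE 0.12, adjusted p = 0.0233) and in ML1 ch+ (−0.40, SE 0.12, adjusted p = 0.0439). Without ctrl replicate 375 it was no longer called in either (−0.32 and −0.27), nor in ML1 without ch+ replicate 539 (−0.33), nor in either after quantile normalization (−0.22 and −0.15) or with no mean-variance trend, nor in ML1 with estimated sample weights (−0.38) or in a fit of the compared groups alone. The adjusted p of these values ran from 0.00832 to 0.352 in HL60 and from 0.0187 to 0.577 in ML1 over the alternatives.

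Col5a1 (ENSMUSG00000026837, chr2:27886425-28039514) encodes the chain that most collagen V molecules hold. It was 13.36, 13.33 and 13.66 in ctrl, 12.81, 12.76 and 12.73 in HL60 late, and 12.69, 11.91 and 12.55 in ML1 late, so all 6 late libraries were below every ctrl library. The log2 fold change was −0.68 in HL60 late (SE 0.15, adjusted p = 0.00229) and −1.06 in ML1 late (SE 0.15, adjusted p = 3.27e-06). No change of Col5a1 was called at the early stage in either line.

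Col5a3 (ENSMUSG00000004098, chr9:20770050-20815067), which encodes the chain with the more restricted expression, was the lowest of the collagen V genes per kb and moved the other way. It was 9.15, 8.79 and 8.90 in ctrl, 9.60, 9.65 and 9.39 in HL60 late, and 10.78, 10.31 and 10.86 in ML1 late. All 6 late libraries were above every ctrl library, and ML1 late was above HL60 late throughout. The rise was called in ML1 late (1.70, SE 0.26, adjusted p = 8.73e-06, 3.25-fold) and not in HL60 late (0.60, SE 0.26, adjusted p = 0.159). In HL60 late it was called without HL60 ch+ replicate 525 (adjusted p = 0.0942), after rescaling to library totals (1.17) and in a fit of the compared groups alone, and the adjusted p ran from 0.00134 to 0.392 over the alternatives.

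Col5a3 also set early ch+ apart from early ch- cells. By the study's account these cells came from the same marrow, but no label links their libraries by mouse, so the tests treat them as independent. The ch- values were 8.36, 7.59 and 8.34 in HL60 and 8.11, 8.50 and 8.60 in ML1, all below the lowest ctrl library. The ch+ values were 9.38, 9.99 and 8.61 in HL60 and 9.01, 9.41 and 9.53 in ML1. Every ch+ library was above every ch- library, with HL60 ch+ replicate 525 close to the highest of them. It was the gene called in ch+ against ch- cells: 1 of 10 in HL60 (1.23, SE 0.26, adjusted p = 0.0039), beside 3.92% of all tested genes, and 1 of 10 in ML1 (0.91, SE 0.26, adjusted p = 0.0473), beside 4.25%. Pooled over the lines it was again 1 of 10 (1.07, SE 0.23, adjusted p = 0.00397), beside 6.26% of all tested genes, and 2 of 10 without HL60 ch- replicate 527. With the lines averaged in the 7-group fit, Col3a1 and Col5a2 were called too, 3 of 10 beside 7.72% of all tested genes. In a fit of the compared groups alone Col5a2 was called too, for 2 of 10 beside 6.67%. After rescaling to library totals Col3a1 was called too, pooled (0.57) and in ML1 (0.74), where every ch+ library was above every ch- library. In ML1 the call was lost without ch- replicate 543 (0.77), ch+ replicate 539 (0.87) or ch+ replicate 541 (0.81), with the adjusted p from 0.0105 to 0.217 over the other alternatives. There, a further gene was called without HL60 ch- replicate 527 or 529, ML1 ch- replicate 544 or ML1 ch+ replicate 538, for 2 of 10. The difference of the ch+ effect between the lines, tested as an interaction, was 0.31 (95% interval −0.43 to 1.06, adjusted p = 0.946), and −0.02 without HL60 ch+ replicate 524.

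Within a library, the collagen V chains changed their balance. The log2 level per kb of Col5a1 minus that of Col5a2 was −0.92 to −0.76 in the ctrl libraries, −0.05 to 0.00 in HL60 late and 0.36 to 0.85 in ML1 late. In the early groups it stayed between −0.94 and −0.58. The difference of Col5a3 from Col5a1 narrowed from −4.44 to −3.89 in ctrl to −3.02 to −2.79 in HL60 late and −1.60 to −1.29 in ML1 late. In early ch- cells it was wider, at −5.59 to −4.54, below every ctrl library. In early ch+ cells it was −4.07 to −2.81, overlapping ctrl. Measured against Col1a1, which encodes a chain of collagen I, Col5a2 shifted most in ML1 late. Its log2 level per kb minus that of Col1a1 was −6.41 to −6.35 in ctrl, −6.34 to −6.08 in HL60 late and −5.14 to −4.57 in ML1 late, and lay between −6.46 and −6.19 in the early groups. Every HL60 late and ch+ library was above every ctrl library, by little, and ch- libraries overlapped ctrl. Col3a1 shifted by more in the same groups. Its difference from Col1a1 was −8.79 to −8.40 in ctrl, −6.24 to −5.33 in HL60 late and −4.01 at the lowest in ML1 late (median −3.46), with no overlap between these groups. In early ch+ cells it was −7.99 to −6.98, above every ctrl library, and in ch- cells −8.87 to −7.19, overlapping ctrl.

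**Figure D2:**
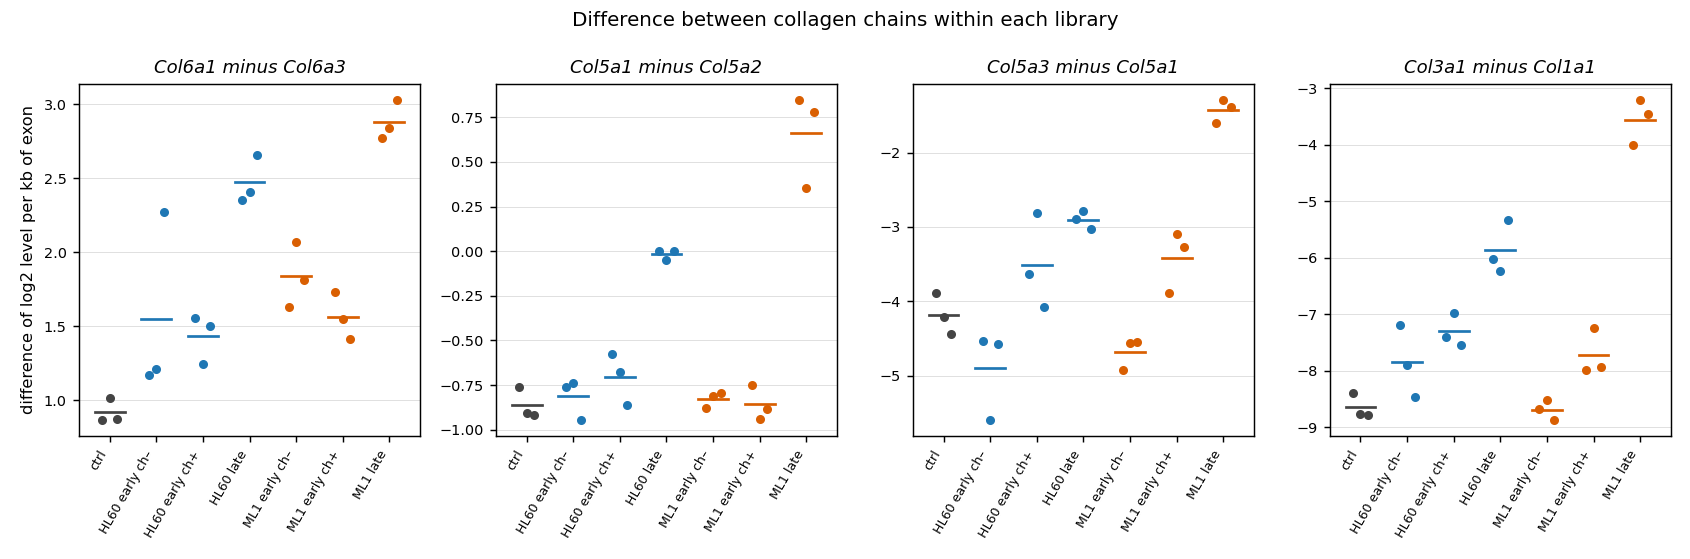
Difference of log2 level per kb of exon between a pair of collagen genes within the same library (y axis), for the 7 groups (x axis). Points are libraries, 3 in each group, and bars are group means. Col5a1 lies below Col5a2 in every ctrl and early library and above it in every ML1 late library.

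Collagen VI is built from the products of Col6a1, Col6a2 and Col6a3. Col6a1 (ENSMUSG00000001119, chr10:76708792-76726168) and Col6a2 (ENSMUSG00000020241, chr10:76595762-76623630) lie 85161 bp apart on the same strand with no protein-coding gene between them, and they rose together at the late stage. Col6a1 was 11.94, 11.47 and 11.70 in ctrl, 12.94, 12.66 and 12.91 in HL60 late, and 13.80, 13.24 and 13.77 in ML1 late. Col6a2 was 12.83, 12.20 and 12.27 in ctrl, 13.68, 13.25 and 13.70 in HL60 late, and 14.56, 13.99 and 14.39 in ML1 late. For both genes the groups did not overlap, with ctrl lowest and ML1 late highest. Col6a1 rose 2.19-fold in HL60 late (log2 fold change 1.13, SE 0.14, adjusted p = 1.52e-06) and 3.73-fold in ML1 late (SE 0.14 on the log2 scale, adjusted p = 1.62e-11). Col6a2 rose 2.16-fold in HL60 late (1.11, SE 0.16, adjusted p = 9.61e-06) and 3.69-fold in ML1 late (1.88, SE 0.16, adjusted p = 1.99e-10). Neither was called in any comparison of an early group with ctrl.

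Col6a3 (ENSMUSG00000048126, chr1:90765923-90843971), which encodes the longest of these chains, did not join them on the deposited scale. After rescaling to library totals it was called higher in ML1 late and not in HL60 late, and also with the lines pooled (0.45). Relative to the all-gene median after rescaling, it lay at −0.43 in HL60 late, −0.09 in ML1 late and −0.26 with the lines pooled. It was 12.53, 11.91 and 12.27 in ctrl, 12.03, 11.70 and 11.70 in HL60 late, and 12.48, 11.85 and 12.19 in ML1 late, and both late groups overlapped ctrl. Its log2 fold change was −0.42 in HL60 late (95% interval −0.85 to 0.01, adjusted p = 0.244) and −0.07 in ML1 late (−0.49 to 0.36, adjusted p = 0.89). In HL60 late it passed the test without HL60 ch- replicate 529 (adjusted p = 0.0973), and in ML1 late its sign turned without ctrl replicate 373 (0.08) or ML1 late replicate 582 (0.10). At the early stage it was 11.66, 11.31 and 11.53 in ML1 ch- cells, all below ctrl, and this was called (−0.74, SE 0.21, adjusted p = 0.0771). That call was lost without ctrl replicate 373 or 375 (−0.59 and −0.72) or without ML1 ch- replicate 543, 544 or 546 (−0.81, −0.64 and −0.75), and over the other alternatives the adjusted p ran from 0.0335 to 0.304.

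The chains of collagen VI therefore drew apart within libraries. The log2 level per kb of Col6a1 minus that of Col6a3 was 0.87 to 1.01 in ctrl, 2.36 to 2.65 in HL60 late and 2.77 to 3.03 in ML1 late, a median ratio per kb of 1.83, 5.32 and 7.17. The early groups lay between ctrl and late, at 1.17 to 2.27 in ch- and 1.25 to 1.73 in ch+. Col6a2 minus Col6a1 differed little between ctrl and the late groups, at −0.36 to −0.04 in ctrl, −0.34 to −0.13 in HL60 late and −0.31 to −0.16 in ML1 late. Exon length counts every annotated exon of a gene, so these levels and ratios rest on the annotation, while their change between groups does not.

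Because Col6a1 and Col6a2 moved together and Col6a3 did not, the 250 bases before a RefSeq start of each are shown (GRCm38.p6). RefSeq promoters were matched for 7 of 10 genes, with 8 starts, and not for Col5a2, Col12a1 and Col14a1. Searched on both strands were the TATA box TATAAA (in 12.4% of all 32851 promoters of this length), the CAAT box CCAAT (33.8%), the GC box GGGCGG (32.7%), the AP-1 site TGANTCA, N being any base (6.75%), and GGGAGGG (19.7%), which was chosen after the sequences were read. Every match is in capitals. Col6a1 (chr10:76726045-76726294, minus strand) held the AP-1 site 1 time and GGGAGGG 5 times, the 3 nearest the start overlapping. Its RefSeq start lies inside the gene as annotated above, so 124 of the 250 bases are within that gene. Col6a2 (chr10:76623631-76623880, minus strand, the more upstream of its 2 starts) held the GC box 1 time and GGGAGGG 1 time, and its other window, not shown (chr10:76623405-76623654), held them 3 and 2 times. Col6a3 (chr1:90843972-90844221, minus strand) held GGGAGGG 1 time. The TATA box and the CAAT box were in none of these 3 windows, and a match describes the letters alone.
Col6a1: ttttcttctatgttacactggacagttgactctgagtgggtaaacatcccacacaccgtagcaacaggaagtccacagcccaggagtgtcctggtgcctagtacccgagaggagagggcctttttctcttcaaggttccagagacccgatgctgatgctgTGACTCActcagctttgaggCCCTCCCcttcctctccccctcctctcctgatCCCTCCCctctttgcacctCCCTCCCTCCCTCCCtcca
Col6a2: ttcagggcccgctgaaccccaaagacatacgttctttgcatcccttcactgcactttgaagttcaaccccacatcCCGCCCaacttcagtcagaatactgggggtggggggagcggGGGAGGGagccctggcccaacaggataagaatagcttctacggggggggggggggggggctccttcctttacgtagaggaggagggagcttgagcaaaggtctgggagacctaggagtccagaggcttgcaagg
Col6a3: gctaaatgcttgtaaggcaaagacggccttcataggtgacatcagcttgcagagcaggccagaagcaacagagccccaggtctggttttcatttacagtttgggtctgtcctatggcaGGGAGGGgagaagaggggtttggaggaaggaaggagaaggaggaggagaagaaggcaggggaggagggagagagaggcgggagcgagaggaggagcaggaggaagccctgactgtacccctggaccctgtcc

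Among the fibril-associated collagens is that of Col12a1 (ENSMUSG00000032332, chr9:79598991-79718831), collagen XII, which lies on collagen I fibrils in dense tissue. At the early stage Col12a1 was higher in HL60 than in ML1 libraries, a difference called in ch- and not in ch+ cells. It was 13.84, 12.95 and 13.43 in ctrl, 13.26, 13.64 and 13.28 in HL60 ch+, and 12.62, 12.71 and 12.13 in ML1 ch+. In early ch- cells it was 13.93, 13.71 and 13.31 in HL60 and 12.96, 12.84 and 12.43 in ML1. In each kind of early cell every HL60 library was above every ML1 library. The ML1 ch+ libraries were all below ctrl, and the HL60 ones overlapped it. Against ctrl, Col12a1 fell in ML1 ch+ (−0.92, SE 0.19, adjusted p = 0.00231) and in ML1 ch- (−0.66, SE 0.19, adjusted p = 0.0741). The ML1 ch- call was lost without ctrl replicate 373 or 375 (−0.45 and −0.65) or ML1 ch- replicate 544 or 546 (−0.71 and −0.51), with the adjusted p from 0.0357 to 0.292 over the other alternatives. At the late stage it was 13.79, 13.44 and 13.77 in HL60 and 13.56, 13.31 and 13.39 in ML1, all within the range of ctrl. On the deposited scale it was called in neither line, and after rescaling to library totals in both. Relative to the all-gene median after rescaling, it lay at 0.25 in HL60 late and −0.02 in ML1 late.

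The difference between the lines was itself tested. In early ch- cells Col12a1 was 0.90 higher in HL60 than in ML1 (SE 0.19, adjusted p = 0.0882), and it was the 1 of 10 genes called, beside 0.0539% of all tested genes. The call was lost without any of 15 libraries, at values from 0.75 to 1.01: ctrl 375, HL60 ch- 527 and 528, ML1 ch- 543, 544 and 546, HL60 ch+ 523 and 525, ML1 ch+ 538, and the late libraries 397, 398, 399, 581, 582 and 583. It was also lost with no filter on low values, after quantile normalization (0.85), with no mean-variance trend, with robust empirical Bayes and at a threshold of 0.05, with the adjusted p from 0.0446 to 0.437 over the alternatives other than leaving out a library. Without HL60 ch- replicate 529, 2 of 10 genes were called. In early ch+ cells the difference was also 0.90 (SE 0.19, adjusted p = 0.137). There limma called 0 of 10 genes, beside 0.0154% of all tested genes, and 1 of 10 had an unadjusted p under 0.05, beside 7.61%. Without ctrl replicate 373 or 374 or HL60 ch- replicate 527 it called 1 of 10, Col12a1 (0.90 each time).

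Col14a1 (ENSMUSG00000022371, chr15:55307750-55520803) and Col16a1 (ENSMUSG00000040690, chr4:130047840-130099283), which encode further fibril-associated collagens, were not called in any of the 17 comparisons on the deposited scale. After rescaling to library totals Col16a1 was called higher in both late groups and in late against ch+ cells, and Col14a1 in HL60 late. Of all tested genes, 42.5% were then called in HL60 late, 67.6% in ML1 late and 69.5% in late against ch+ cells. Relative to the all-gene median after rescaling, Col16a1 lay at 0.07 in HL60 late, −0.21 in ML1 late and −0.11 in late against ch+ cells. Col14a1 lay at 0.47 in HL60 late. Col14a1 was 6.52, 6.06 and 6.36 in ctrl, 6.32, 6.73 and 7.31 in HL60 late, and 5.67, 5.22 and 5.70 in ML1 late. The ML1 late libraries were below every ctrl and every HL60 late library, and the difference of 1.26 between the lines (SE 0.46, adjusted p = 0.184) did not pass the test. It passed with estimated sample weights and in a fit of the late groups alone, and the adjusted p ran from 0.0214 to 0.419 over the alternatives. Col16a1 ranged from 7.34 to 8.44 over all 21 libraries and overlapped ctrl in every group. The 4 genes not called in either line at the late stage, Col6a3, Col12a1, Col14a1 and Col16a1, had log2 fold changes from −0.42 to 0.47 in HL60 late and from −0.78 to 0.01 in ML1 late.

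**Figure D3:**
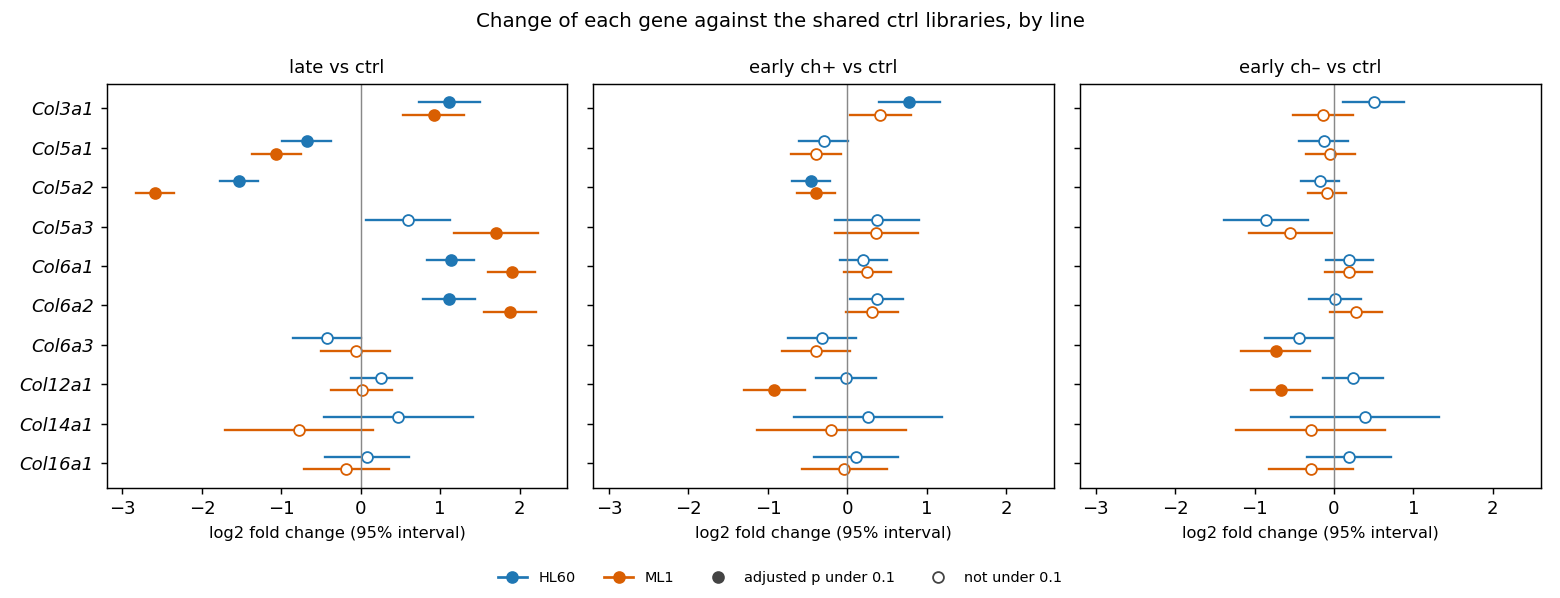
Log2 fold change of each of the 10 genes against ctrl (x axis, with 95% intervals from limma) for late, early ch+ and early ch- cells, in HL60 and ML1. Filled points passed an adjusted p of 0.1. The 3 ctrl libraries are shared by all comparisons. Col5a2 fell by 1.53 in HL60 late and by 2.59 in ML1 late.

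Between the late groups, 4 of 10 genes differed by the test of HL60 against ML1, 1 higher and 3 lower in HL60, beside 4.09% of all tested genes. Col5a2 was higher in HL60 late by 1.06 (SE 0.12, adjusted p = 1.97e-07), its fall from ctrl having been the smaller. Col5a3 was lower in HL60 late by a log2 difference of −1.10 (SE 0.26, adjusted p = 0.00904). Col6a1 differed by −0.77 (SE 0.14, adjusted p = 0.000844) and Col6a2 by −0.77 (SE 0.16, adjusted p = 0.00276). Without ML1 late replicate 581, 5 of 10 genes were called. For these 4 genes, all 3 libraries of a line lay on the same side of all 3 of the other. Col5a1 and Col14a1 were also apart in this way and were not called. Of the 10 genes, 3 were wholly above and 3 wholly below in HL60 late. How many of all tested genes were apart in this way was not counted. Rescaling to library totals kept each sign and call, at 0.81, −1.35, −1.01 and −1.02, with an all-gene median of −0.24.

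Late cells were also compared with early ch+ cells, pooled over the lines. Late cells were not split by the red label, so stage and sort differ together in this comparison. Here 7 of 10 genes were called, 5 higher and 2 lower, beside 19.7% of all tested genes. After rescaling to library totals it was 8 of 10, 7 higher and 1 lower, beside 69.5% (8465 genes higher, 590 lower), with Col6a3 (0.73) and Col16a1 (0.53) added and Col5a1 lost. Col6a1 was higher by 1.29 (SE 0.15, adjusted p = 1.23e-07), Col6a2 by 1.16 (SE 0.16, adjusted p = 2.98e-06) and Col5a3 by 0.78 (SE 0.23, adjusted p = 0.0201). Col5a2 was at −1.63 (SE 0.17, adjusted p = 2.47e-08) and Col5a1 at −0.53 (SE 0.12, adjusted p = 0.00281), which turned to 0.09 after rescaling to library totals, where the all-gene median was 0.63. The 6 late libraries of Col6a1 ran from 12.66 through a median of 13.09 to 13.80 and the 6 ch+ libraries from 11.77 through 11.90 to 12.13, without overlap. Col12a1 (0.60, SE 0.22, adjusted p = 0.0633) and Col3a1 (0.42, SE 0.17, adjusted p = 0.0994) passed narrowly. Col12a1 was not called without ML1 ch+ replicate 538, 539 or 541 or HL60 late replicate 397 or 399 (0.44 to 0.56). Col3a1 was not called without any of the 3 ctrl libraries, HL60 ch- 529, ML1 ch- 544, HL60 ch+ 525, ML1 ch+ 538 or 541, HL60 late 397 or 399, or any of the 3 ML1 late libraries (0.33 to 0.44). With HL60 libraries alone, 4 of 10 genes were called, beside 9.91% of all tested genes: Col6a1 (0.93), Col6a2 (0.75), Col5a2 (−1.07) and Col5a1 (−0.39). Col5a3, Col12a1 and Col3a1 were at 0.22, 0.27 and 0.33 there and were not called (adjusted p = 0.767, 0.485 and 0.384). With ML1 libraries alone all 7 were called, beside 15.7%, with Col5a3 at 1.33, Col12a1 at 0.93 and Col3a1 at 0.50. These 3 genes were thus called in ML1 alone, and the difference between the lines in this comparison was not tested.

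Against ctrl, the early groups gave few calls. In HL60 ch+ cells 2 of 10 genes were called, Col3a1 higher and Col5a2 lower, beside 5.33% of all tested genes. In ML1 ch+ cells 2 of 10 were called, Col5a2 and Col12a1, both lower, beside 6.69%. Without ctrl replicate 375, 1 of 10 remained called in each line, and in ML1 also without ch+ replicate 539. It was 3 of 10 in each line without ctrl replicate 373, and in ML1 also without late replicate 582. Pooled ch+ cells gave 0 of 10 in limma, beside 6.17% of all tested genes, and 3 of 10 (Col3a1, Col5a1 and Col5a2) had an unadjusted p under 0.05, beside 16.8%. Pooling leaves differences between the lines in the residual spread. With the lines averaged in the 7-group fit Col3a1, Col5a2 and Col12a1 were called, 3 of 10 beside 8.18% of all tested genes. In a fit of the compared groups alone it was Col3a1 and Col5a2, beside 5.97%, and after rescaling to library totals Col3a1, beside 6.26%. In the pooled fit the count called became 1 of 10 without HL60 ch- replicate 527, ML1 ch- replicate 543 or ML1 ch+ replicate 538 or 541. In ML1 ch- cells 2 of 10 were called, Col6a3 and Col12a1, both lower, beside 2.34% of all tested genes. In HL60 ch- cells limma called 0 of 10, beside 1.57%, with 3 of 10 at an unadjusted p under 0.05, beside 10.7%. It called 1 of 10 without HL60 ch- replicate 529 or HL60 ch+ replicate 524 or 525. Pooled ch- cells gave 0 of 10 in limma, beside 1.92%, with 2 of 10 at an unadjusted p under 0.05, beside 11.9%, and 1 of 10 called without HL60 ch- replicate 527. The interaction of label and line was called for 0 of 10 genes in limma, beside 0.00771% of all tested genes, with 0 of 10 at an unadjusted p under 0.05, beside 6.40%.

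Other collagen genes of fibrils also fell at the late stage. Of 14 other fibril-forming and fibril-associated collagen genes, 12 were tested. At the late stage 0 rose and 11 fell in HL60 and 0 rose and 12 fell in ML1, with medians of −2.10 and −4.44 beside 0.01 and 0.03 over all tested genes. Col1a1 fell 3.19-fold in HL60 late and 18.1-fold in ML1 late, and Col2a1, a collagen of cartilage, fell 7.71-fold and 30.6-fold. In pooled ch+ cells 6 of the 12 fell, with a median of −1.17. Summed per kb over the 44 collagen genes of the table, Col1a1 and Col1a2 made up 87.3% to 92.2% of the signal in ctrl libraries, 81.4% to 86.5% in HL60 late and 47.2% to 54.4% in ML1 late. The 10 interstitial collagen genes made up 2.25% to 2.82%, 6.20% to 8.84% and 26.6% to 30.7% in the same groups.

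Among 21 other genes for collagen VI-like, network, basement membrane and membrane-spanning collagens, 15 were tested, and at the late stage 4 rose and 3 fell in HL60 and 5 rose and 4 fell in ML1. Their medians were 0.21 and 0.39. Col8a1, which encodes a network-forming collagen of vessel walls, rose 7.54-fold in HL60 late and 5.51-fold in ML1 late, while Col13a1 fell 5.68-fold and 17.8-fold. Of 24 genes for the assembly and processing of fibrils, 1 rose and 15 fell in HL60 late, with a median of −0.89. In ML1 late 1 rose and 18 fell, with a median of −0.90. Counts of all lists are on the deposited scale, beside 13.7% of all tested genes called in HL60 late and 22% in ML1 late. After rescaling to library totals the all-gene medians were 0.58 and 0.84. List counts after it are not given, and falls smaller than these medians may not hold. At the late stage Fn1, which encodes fibronectin, fell 3.91-fold in HL60 and 7.48-fold in ML1. Dcn, which encodes the fibril-binding decorin, fell 2.33-fold and 8.12-fold. In pooled ch+ cells against ctrl Fn1 was called higher (log2 fold change 0.99), and Dcn was not called. Of 11 receptor genes for these collagens, 4 rose and 3 fell in each line at the late stage on the deposited scale, with medians of 0.42 and 0.33. The fall of Ddr2 (−0.63 and −0.77) was of about the size of the all-gene medians after rescaling. Antxr1, whose product binds collagen VI, rose 2.01-fold in HL60 late and 2.14-fold in ML1 late, and Cspg4, which encodes the NG2 proteoglycan that binds collagens V and VI, fell 3.05-fold and 5.02-fold.

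Markers of cell types moved with these results. Of 9 markers of CXCL12-abundant mesenchymal cells, 6 rose and 0 fell in HL60 late and 6 rose and 1 fell in ML1 late. Their summed log2 level was 15.50, 15.70 and 16.12 in ctrl, 16.77 to 17.06 in HL60 late and 16.83 to 17.02 in ML1 late, with Cxcl12 the most abundant. Already in pooled ch+ cells against ctrl, Cxcl12 (0.88), Ebf3 (0.88), Kitl (0.82), Lepr (0.67) and Adipoq (1.16) were called higher. Foxc1, Pdgfra and Pdgfrb were not called there. Of 8 osteoblast markers, 0 rose and 6 fell in HL60 late and 0 rose and 8 fell in ML1 late, and 7 were higher in HL60 late than in ML1 late. The osteoblast sum was 20.24 to 20.69 in ctrl, 18.54 to 18.89 in HL60 late and 15.98 to 16.77 in ML1 late, with Col1a1 the most abundant and no marker under the filter. Of 8 chondrocyte markers, 8 fell in each line at the late stage, and the sum was 16.21 to 17.29 in ctrl, 13.41 to 14.27 in HL60 late and 11.60 to 12.14 in ML1 late, with Col2a1 the most abundant. The same 8 were also called lower in pooled ch+ than in ch- cells, at a median of −2.94, the comparison in which Col5a3 was higher. Col1a1 and Col2a1 are also in the list of other fibril collagens. The part of these shifts in the collagen results was not tested.

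Of 6 smooth muscle and pericyte markers, 1 rose and 4 fell in each line at the late stage, and 6 were lower in ch+ than in ch- cells, with sums of 14.09 to 15.00 in ctrl, 13.69 to 13.90 in late, 12.82 to 13.18 in ch+ and 13.67 to 14.47 in ch-. Of 8 markers of fibroblasts, periosteum and tendon, 5 were tested, and 0 rose and 2 fell in HL60 late and 4 fell in ML1 late. Clec3b, Scx and Tnmd were under the filter, and the sum was 12.21 to 12.33 in ctrl, 11.99 to 12.21 in HL60 late and 10.61 to 10.93 in ML1 late. In pooled ch+ cells against ctrl, Ly6a (1.22) and Dpt (1.14) were called higher, while Cd34, Pi16 and Postn were not called. Of 6 endothelial markers 4 fell in ML1 late, and in HL60 late limma called 0, with 0 at an unadjusted p under 0.05 (the sum was 7.81 to 8.24 in ctrl, 7.75 to 8.17 in HL60 late and 7.32 to 7.46 in ML1 late). Of 4 Schwann cell markers 0 rose and 1 fell in each line late. Blood markers, 6 of 9 tested, had 1 lower in HL60 late and 2 in ML1 late, and 6 higher in pooled ch+ and 5 higher in pooled ch- cells against ctrl, with a sum of 8.00 to 8.86 in ctrl, 9.93 to 11.11 in ch+ and 10.29 to 11.32 in ch-. All 8 red cell markers were higher in ch+ and in ch- cells, with sums of 8.39 to 9.46 in ctrl, 12.09 to 13.66 and 12.32 to 13.32, with Hbb-bs the most abundant. Of them 4 fell in each line at the late stage, with sums of 6.63 to 7.01 in HL60 and 6.55 to 6.74 in ML1, and Hbb-bs fell by 2.96 on the log2 scale with the lines pooled. Of 6 skeletal muscle markers, 5 were tested, all 5 were higher in ch+ cells, and 1 was lower in each line late. None of the 10 collagen genes is on a marker list, and the part of these cells in the early collagen values was not tested.

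Over the 21 libraries, the gene with the pattern most like each collagen gene was named by Pearson's r among 12966 other tested genes, as a description. For Col5a2 these were Col11a1 (r = 0.99), Col11a2 (0.99) and Sgms2 (0.99), and for Col5a1 they were Lpar3 (0.95), Cercam (0.94) and Creb3l1 (0.94). Col6a1 and Col6a2 were each nearest to Pdgfrb (0.97 and 0.96), followed by Steap4 and Sept11 for Col6a1 and by Enpp1 and Nid1 for Col6a2 (0.95 to 0.96). Col5a3 was nearest to Col4a2 (0.93), Ecm1 (0.92) and Tagln2 (0.91), and Col3a1 to Igsf10 (0.83), Tut7 (0.80) and Gbp2 (0.79). For Col12a1 the nearest was Mest (0.81), then Edil3 (0.75) and Ltbr (0.74), and for Col6a3 it was Myo1c (0.75), then Med16 (0.74) and Hnrnpab (0.72). Col14a1 was nearest to Cd34 (0.70), Syt6 (0.70) and Lurap1l (0.68), and Col16a1 to Tbc1d20 (0.66), 4930453N24Rik (0.65) and Slc39a6 (0.65). These values follow the group means as well as the spread within groups: after the group means were taken out, r was 0.60 for Col6a1 with Pdgfrb and 0.57 for Col5a2 with Col11a1. Over all pairs named here it then ran from 0.24 for Col6a1 with Steap4 to 0.83 for Col6a2 with Enpp1.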

How the data were processed

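Per the labels and the study's methods, the authors used STAR 2.5.1b (mm10) for alignment, RSEM 1.2.29 for counts and DESeq2 for normalization (1.10.1 in the labels, a later version in the methods). The deposited values are regularized log2 values, from −2.33 to 22.44, and were read as log2 although the methods say log10. The depth of single libraries is unknown. Group and line came from title and time point. Symbols, positions and exon lengths came from GENCODE M21 (GRCm38). limma 3.58.1 (R 4.3.3) was fitted with a mean-variance trend to all 21 libraries, in 4 groups (lines pooled) and in 7 groups (lines apart), with two-sided tests, Benjamini-Hochberg adjustment within each of 17 comparisons over 12976 genes with a mean of at least 3.32, and a threshold of 0.1. The procedure was tested on simulated data. No pair among 210 pairs of libraries was identical, and r within groups was 0.935 to 0.976. Exons of a microRNA gene share 141 bp with Col3a1, and exons of 2 genes on the other strand share 99 and 113 bp with Col5a1. The members and all gene lists, 4 of matrix genes and 10 of cell type markers, were chosen with earlier results of these data known. Genes named from a list were chosen after their values were seen. Alternatives were another filter, quantile normalization, rescaling to library totals, no variance trend, robust variances, weighted samples, fits restricted to the compared groups or to 1 line, averaged lines, a threshold of 0.05, and leaving out each library. Samples of the series with patient or cord blood cells were not used here.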

Additional observations from a re-analysis of the deposited data

Results flagged for a closer look

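HL60 and ML1 differed by a test of the difference itself for 5 values. At the late stage, HL60 minus ML1 was 1.06 on the log2 scale for Col5a2, −1.10 for Col5a3, −0.77 for Col6a1 and −0.77 for Col6a2. In early ch- cells it was 0.90 for Col12a1, a call lost without any of 15 libraries and under 5 other alternatives. In 30 groups of 6 libraries (10 genes in late, early ch+ and early ch- cells, both lines together), 4 values, from 3 libraries, stood apart from the other 5 of their group. Chance alone gives about 1 in 20 groups for independent, normally spread values of 1 population. Here both lines were pooled and the genes share libraries, so the 4 values cannot be weighed against that rate. Col3a1 was 13.68 in HL60 late replicate 399, above the other late libraries at 13.12 to 13.29. Col5a1 was 11.91 and Col16a1 was 7.39 in ML1 late replicate 582, below the others at 12.55 to 12.81 and 7.95 to 8.13. Col5a2 was 14.15 in HL60 ch- replicate 527, below the others at 14.36 to 14.43.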

How the results depend on the processing

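No paired analysis was made because the labels do not link ch+ and ch- libraries by mouse, although the paper describes these cells as from the same marrow. Counts below are genes called of 10 unless all tested genes are named. After rescaling to library totals, Col6a3 turned to 0.15 in HL60 late and 0.75 in ML1 late, and Col5a1 in late against early ch+ to 0.090. All tested genes called were then 8323 in pooled late, 5539 in HL60 late, 8806 in ML1 late and 9055 in late against ch+, and of the 10 it was 8 in HL60 late, 1 in pooled ch+, and 2 in ch+ against ch-, pooled and in ML1. With HL60 libraries alone, 2 were called in ch+ and 4 in late against ch+, and of all tested genes 1756 in late, 1286 in late against ch+ and 478 in ch+ against ch-. With ML1 libraries alone, 2 were called in ch+, 2 in ch- and 2 in ch+ against ch-, and 460 of all tested genes in the last. Averaging the lines gave 3 in ch+ and 3 in ch+ against ch-. In fits of the compared groups it was 2 in pooled ch+ and 2 in ch+ against ch-, pooled and in ML1, 1 in ML1 ch+, 1 in ML1 ch- and 1 for HL60 against ML1 ch+. All tested genes called there were 552 in ML1 ch+, 126 in HL60 ch-, 181 in ML1 ch-, 990 for HL60 against ML1 late and 4 for HL60 against ML1 ch-.

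Sample weights gave 1 in ML1 ch+, 1 in ML1 ch- and 0 in ML1 ch+ against ch-. Of all tested genes they gave 156 in pooled ch-, 533 in ML1 ch+, 190 in ML1 ch-, 362 in ML1 ch+ against ch-, 1183 for HL60 against ML1 late, 0 for HL60 against ML1 ch+ and 0 for the interaction. With no filter, 1 was called in HL60 ch+ and 0 in ML1 ch-, in ML1 ch+ against ch- and for HL60 against ML1 ch-, and of all genes 427 in HL60 ch+, 133 in HL60 ch-, 178 in ML1 ch-, 8 for HL60 against ML1 ch+ and 1 for ch-. Quantile normalization gave 1 in HL60 ch+, 1 in ML1 ch+, 2 in ML1 ch+ against ch-, 1 for HL60 against ML1 ch+ (4 of all tested genes) and 0 for ch-. With no mean-variance trend it was 0 in HL60 ch+, 1 in ML1 ch+, 0 in ML1 ch- (170 of all tested genes), 0 in ML1 ch+ against ch- and 0 for HL60 against ML1 ch-, with 0 of all tested genes between the lines in ch+ and in ch-. Robust empirical Bayes gave 0 in ML1 ch-, 0 for HL60 against ML1 ch-, and 1 of all tested genes for HL60 against ML1 ch+. At a threshold of 0.05, 0 were called in ML1 ch- and for HL60 against ML1 ch-, and of all tested genes 512 in ch+, 156 in ch-, 461 in HL60 ch+, 133 in HL60 ch-, 178 in ML1 ch- and 0 for HL60 against ML1 ch-.

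Leaving out 1 library at a time, the count called of 10 ran from 0 to 1 in pooled ch+, pooled ch-, HL60 ch- and HL60 against ML1 ch+, from 1 to 2 in pooled ch+ against ch-, from 1 to 3 in HL60 ch+ and ML1 ch+, and from 0 to 2 in ML1 ch-, ML1 ch+ against ch- and HL60 against ML1 ch-. All tested genes called ran from 136 to 280 in ch-, from 106 to 227 in HL60 ch-, from 180 to 340 in ML1 ch-, from 295 to 541 in HL60 ch+ against ch-, from 0 to 6 and from 0 to 10 for HL60 against ML1 ch+ and ch-, and from 0 to 2 for the interaction. Col6a3 in ML1 late ran from −0.23 to 0.10, and the interaction of Col5a3 from −0.017 to 0.67.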
